A study of Mus musculus with 21 samples.

Results

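The interleukin 1 (IL-1) family and the inflammasome were followed through 10 genes in cultured mouse macrophages: Il1a, Il1b, Il1rn, Il18, Il18bp, Nlrp3, Casp1, Casp4, Pycard and Gsdmd. The members were chosen by name, and each was found in both expression tables, among 50645 genes in the fatty acid table and 50644 in the Western diet table. All 10 passed the filter on low values in both tables, where 10476 and 10331 genes were kept.

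RNA was sequenced from bone marrow-derived macrophages, which are marrow cells grown into macrophages in medium conditioned by L929 cells. Donors were C57Bl6/J mice aged 24 weeks, and each of the 7 groups held 3 libraries. In the fatty acid table, marrow came from mice on standard chow (ND). One group was cultured for its first 4 days with 10 mM fatty acid, palmitic to oleic acid at 1:3, together with 200 nM TAK242, which blocks TLR4, the receptor for bacterial lipopolysaccharide (LPS), and received LPS later (FA+TAK242+LPS). Another had the fatty acid without TAK242 and then LPS (FA+LPS), another LPS without pretreatment (LPS), and the last neither (control, replicates 1 to 3). Cells were washed after the pretreatment, cultured to day 7 and given LPS of E. coli at 100 ng/ml for 24 h. The Western diet table held macrophages from mice fed for 24 weeks on a diet rich in fat, sugar and cholesterol, labelled as given LPS (WD+LPS) or not (WD), and untreated chow macrophages (chow, replicates 4 to 6). A group with fatty acid and no LPS was not analysed here. The labels do not say whether replicates were separate animals or separate cultures, so p-values measure only the spread between these libraries, which may be technical.

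IL-1 alpha and IL-1 beta are inflammatory cytokines that act through a shared receptor, and the receptor antagonist encoded by Il1rn occupies that receptor without signalling. IL-1 beta and IL-18 are made as inactive precursors: a sensor such as NLRP3 joins the adaptor ASC (Pycard) and caspase-1 into an inflammasome, and caspase-1 then cuts the precursors and the pore-forming protein gasdermin D (Gsdmd). Mouse caspase-4, also called caspase-11, senses LPS inside the cell and cuts gasdermin D as well, and IL-18 binding protein (Il18bp) captures free IL-18. Transcript levels, as measured here, do not report this cutting step.

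Several members lie close together. On GRCm38, Il1a (chr2:129299610-129309972) and Il1b (chr2:129364570-129371139) stand on the minus strand of chromosome 2, and Il1rn lies on its plus strand (chr2:24336853-24351494). Casp1 (chr9:5298517-5307265) and Casp4 (chr9:5308828-5336783) are neighbours on the plus strand of chromosome 9, which also holds Il18 (chr9:50554827-50581840). The others are Il18bp (chr7:102014885-102018690, minus), Pycard (chr7:127989708-127993867, minus), Nlrp3 (chr11:59541568-59566956, plus) and Gsdmd (chr15:75862339-75867404, plus).

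Values are given as deposited, in a unit the sources do not name, and they behave like values scaled to depth and gene length (FPKM). Library sums were 321532 to 386023, and low values of single-exon genes pointed to about 17400000 to 36500000 fragments per library. The 9 macrophage markers summed to 8741 to 10788 in the fatty acid table and 5847 to 15418 in the Western diet table, while 6 lymphocyte markers summed to at most 0.201 in any library. In bulk RNA, fewer cells of a type and less RNA per cell cannot be told apart.

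Some libraries stood apart or went against their labels. The 6 LPS response genes (Ccl5, Acod1, Saa3, Cxcl10, Irf7 and Zbp1) summed to 20.4, 156 and 20866 in WD+LPS replicates 1 to 3, to 23350, 115 and 24685 in WD replicates 1 to 3, and to 22.5 to 27.2 in chow. Thus 4 Western diet libraries, WD+LPS replicates 1 and 2 and WD replicates 1 and 3, did not match their LPS label, and the values of the libraries left without them are given after the full comparisons. In the fatty acid table the same sum was 16859 to 57492 in the 9 libraries with LPS and 10.0 to 11.7 in controls. LPS replicate 1 differed from the other two LPS libraries in most of the 10 genes, as the values below show.

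The first comparison asked how LPS changed these genes in chow macrophages. Both IL-1 cytokines, their antagonist, IL-18 binding protein, the sensor Nlrp3, both caspases and Gsdmd rose, while Il18 and Pycard did not pass the test. Of the 10 members, 8 rose and 0 fell (limma, adjusted p under 0.05 over all genes tested), against a background of 13.8% of genes called higher and 61.7% called in either direction. The same 8 did not overlap between the groups, as 65.1% of all genes did not. Scaling the libraries by median ratios moved the median of all genes by 0.32 on the log2 scale and the genome-wide split to 27.2% higher and 26.9% lower, from 13.8% and 47.9%. The members' median log2 change was 1.43, against -0.31 over all genes tested.

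Il1b had deposited values of 1987, 543 and 262 in LPS replicates 1 to 3, against 0.14, 0.10 and 0.19 in controls 1 to 3. One fragment of this gene was worth about 0.0229 to 0.0241 in the control libraries, so the control values rest on a few fragments each. The groups did not overlap, and Il1b rose by 9.17 ± 0.62 on the log2(value + 1) scale (standard error; adjusted p = 3.2e-07). Il1a had 558, 159 and 84.5 in LPS libraries and 1.96, 1.55 and 2.43 in controls, a log2 change of 6.06 ± 0.55 (adjusted p = 3.6e-06). Both cytokines were highest in LPS replicate 1 and lowest in replicate 3.

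Nlrp3 followed the same order among LPS libraries, at 49.6, 18.4 and 13.8, against 3.68, 4.31 and 3.58 in controls. Its log2 change was 2.33 ± 0.35 (adjusted p = 0.00016). The antagonist gene ran the other way within the LPS group: Il1rn had 43.0, 55.2 and 77.9 in LPS replicates 1 to 3, against 3.62, 2.62 and 3.08 in controls. Its groups were also separate, with a log2 change of 3.83 ± 0.20 (adjusted p = 3.7e-08).

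The genes of the IL-18 arm differed from each other. Il18bp had 16.1, 28.6 and 35.1 in LPS libraries and 10.1, 13.4 and 10.0 in controls, and it rose by 1.12 ± 0.25 (adjusted p = 0.0027). Il18 had 10.1, 22.5 and 28.2 in LPS libraries and 16.1, 16.1 and 15.3 in controls. LPS replicate 1 lay below every control and the other two LPS libraries above, and the log2 change of 0.22 ± 0.27 missed the threshold (adjusted p = 0.49). Without LPS replicate 1, Il18 rose by 0.64 (adjusted p = 0.00053).

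Among the executioners, Casp1 had 109, 124 and 153 in LPS libraries and 51.0, 54.2 and 55.2 in controls (log2 change 1.24 ± 0.12, adjusted p = 4.7e-06). Casp4 was nearly level across LPS libraries, at 29.5, 29.4 and 26.6, against 8.66, 9.37 and 7.58 in controls (log2 change 1.63 ± 0.11, adjusted p = 4.2e-07). Gsdmd had 39.0, 62.1 and 73.4 in LPS libraries and 28.2, 29.0 and 28.0 in controls (log2 change 0.96 ± 0.18, adjusted p = 0.00085). The groups were separate for all of these genes.

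Pycard varied within groups more than between them. It had 4.19, 64.2 and 34.1 in LPS libraries and 11.3, 68.3 and 66.7 in controls (log2 change -0.76 ± 0.90, adjusted p = 0.48). Gm45205, an unnamed gene model on the opposite strand at the same place, had 4.21 in LPS replicate 1 and 11.3 in control replicate 1, nearly the values of Pycard in those libraries. Whether counting used the strand is not given in the sources used here, so the Pycard values are uncertain.

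**Figure D1:**
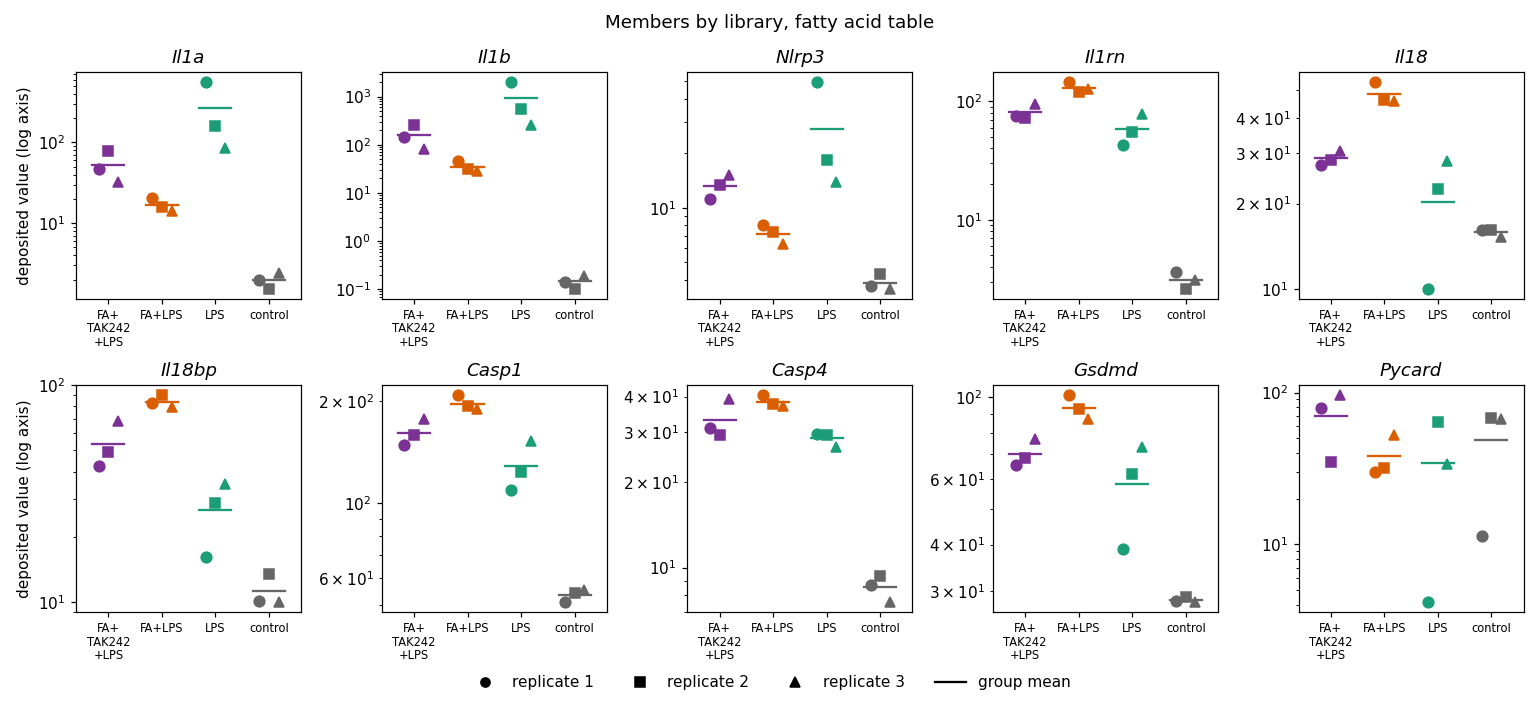
Deposited values of the 10 genes (log axes, one panel a gene) in the 12 libraries of the fatty acid table, by group, with a symbol for each replicate and a line at the group mean. Il1a, Il1b and Nlrp3 are lower in all FA+LPS libraries than in any LPS library, whereas Il1rn, Il18, Il18bp, Casp1, Casp4 and Gsdmd are higher in all of them.

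The stretch of 250 bases before the start site is shown for 4 members: Il1a, Il1b and Nlrp3, whose values followed each other across LPS libraries, and Casp4, the most even of the induced genes. The sequences are RefSeq's on GRCm38.p6 and are printed on the gene's strand. Capitals mark matches, on either strand, to the NF-kB consensus, the interferon element ISRE, AP-1 (TGANTCA), C/EBP (TTNNGCAA) or GAS (TTCNNNGAA).
Il1a, chr2:129309973-129310222, minus strand: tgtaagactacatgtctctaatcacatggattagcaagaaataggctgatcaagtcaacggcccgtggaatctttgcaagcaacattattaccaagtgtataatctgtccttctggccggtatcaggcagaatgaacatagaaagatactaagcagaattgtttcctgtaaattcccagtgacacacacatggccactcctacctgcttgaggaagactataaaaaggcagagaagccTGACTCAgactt
Il1b, chr2:129371140-129371389, minus strand: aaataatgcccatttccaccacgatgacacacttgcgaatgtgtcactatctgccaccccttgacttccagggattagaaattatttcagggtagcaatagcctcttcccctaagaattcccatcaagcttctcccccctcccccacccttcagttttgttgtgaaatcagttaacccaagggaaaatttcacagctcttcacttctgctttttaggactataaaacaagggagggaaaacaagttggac
Nlrp3, chr11:59541319-59541568, plus strand: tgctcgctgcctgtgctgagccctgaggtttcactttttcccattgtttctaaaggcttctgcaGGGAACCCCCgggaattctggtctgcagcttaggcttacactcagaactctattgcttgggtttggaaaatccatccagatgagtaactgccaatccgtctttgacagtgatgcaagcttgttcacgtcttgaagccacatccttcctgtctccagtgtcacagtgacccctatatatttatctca
Casp4, chr9:5308599-5308848, plus strand: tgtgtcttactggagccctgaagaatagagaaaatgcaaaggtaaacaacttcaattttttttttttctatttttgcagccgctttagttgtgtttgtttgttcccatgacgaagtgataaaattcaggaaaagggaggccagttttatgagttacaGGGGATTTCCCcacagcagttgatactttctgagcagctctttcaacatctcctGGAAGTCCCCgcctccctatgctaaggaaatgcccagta

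The Casp4 window held the NF-kB consensus in a pair of separate stretches, one of them with overlapping matches on both strands, and the Nlrp3 window printed held it once, from base -186 to -177 before the start. Nlrp3 had another window, chr11:59542436-59542685, which held none of the motifs marked. Among all 32851 windows of this length, 7.25% held that consensus. The Il1a window held AP-1 from base -12 to -6, a motif found in 6.75% of windows, and the Il1b window held none of the motifs marked. Of the 10 members, 9 had at least one window, 13 windows in all, and none of these held ISRE or GAS, which 2.98% and 7.02% of all windows held. A match describes these letters only, and its absence says nothing of a factor's binding.

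The next comparison asked what fatty acid in the first 4 days did to the later LPS response. The members split: Il1a, Il1b and Nlrp3 fell in FA+LPS macrophages relative to LPS macrophages, and Il1rn, Il18, Il18bp, Casp1, Casp4 and Gsdmd rose. In counts, 6 members rose and 3 fell, against 21.8% of all genes called higher and 15.3% called lower (37.2% in either direction), and these 9 genes did not overlap between the groups, as 51.3% of all genes did not. The members' median log2 change was 0.67, against 0.06 over all genes tested.

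Il1b had 45.1, 30.7 and 28.2 in FA+LPS libraries, against 1987, 543 and 262 in LPS libraries. The lowest LPS library was above the highest FA+LPS library, and Il1b fell by 4.23 on the log2 scale, with a standard error of 0.62 (adjusted p = 0.00094). Il1a had 20.5, 15.8 and 14.01 in FA+LPS libraries, against 558, 159 and 84.5 in LPS libraries, a log2 change of -3.49 ± 0.55 (adjusted p = 0.0013). Nlrp3 had 8.04, 7.31 and 6.29 in FA+LPS libraries, against 49.6, 18.4 and 13.8 in LPS libraries (log2 change -1.58 ± 0.35, adjusted p = 0.0059). Gm14023, a gene model that overlaps Il1a, had 3.34 to 4.82 in FA+LPS libraries and 120.5, 35.3 and 18.4 in LPS libraries, and its part in the Il1a value was not tested. Without LPS replicate 1, the log2 changes were -3.44 for Il1b, -2.74 for Il1a and -1.05 for Nlrp3, and all passed the threshold.

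The inhibitors of both cytokine arms went the opposite way. Il1rn had 145, 119.7 and 127 in FA+LPS libraries, against 43.0, 55.2 and 77.9 in LPS libraries (log2 change 1.18 ± 0.20, adjusted p = 0.0017). Il18bp had 82.7, 89.8 and 79.0 in FA+LPS libraries, against 16.1, 28.6 and 35.1 in LPS libraries (log2 change 1.68 ± 0.25, adjusted p = 0.0011). Both were even among FA+LPS libraries and uneven among LPS libraries. Numa1, which overlaps Il18bp on the other strand, averaged 43.8 ± 5.52 in FA+LPS libraries and 18.9 ± 5.32 in LPS libraries (SD, n = 3 each), and its part in the Il18bp value was not tested.

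Il18 itself had 53.3, 46.0 and 45.8 in FA+LPS libraries, against 10.1, 22.5 and 28.2 in LPS libraries (log2 change 1.32 ± 0.27, adjusted p = 0.0041). Casp1 had 208, 193 and 189 in FA+LPS libraries, against 109, 124 and 153 in LPS libraries (log2 change 0.62 ± 0.12, adjusted p = 0.0029). These are the precursor cytokine and the protease that matures it, and both were higher in every FA+LPS library. Bco2, which overlaps Il18 on the other strand, had 3.22 to 3.46 in FA+LPS libraries and 0.576 to 1.40 in LPS libraries. Tex12, which overlaps Il18 too, was at most 0.232 in these groups. The part of these genes in the Il18 value was not tested. Gsdmd had 101, 92.4 and 87.3 in FA+LPS libraries, against 39.0, 62.1 and 73.4 in LPS libraries (log2 change 0.72 ± 0.18, adjusted p = 0.011). Without LPS replicate 1 the log2 change of Gsdmd was 0.46 (adjusted p = 0.0074), and with only these 2 groups in the fit it missed the threshold (adjusted p = 0.061).

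Casp4 changed least of the genes called, with 40.4, 37.6 and 37.1 in FA+LPS libraries and 29.5, 29.4 and 26.6 in LPS libraries (log2 change 0.42 ± 0.11, adjusted p = 0.015). Without FA+LPS replicate 1 it lay just outside the threshold (adjusted p = 0.0501). Pycard had 29.9, 32.1 and 52.8 in FA+LPS libraries and 4.19, 64.2 and 34.1 in LPS libraries, which overlapped (adjusted p = 0.55).

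**Figure D2:**
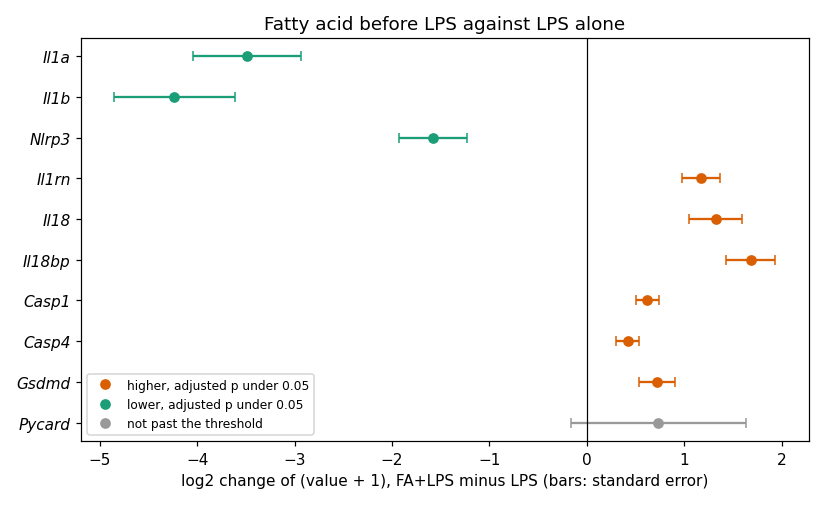
Log2 change of (value + 1) in FA+LPS relative to LPS libraries for the 10 genes, with standard errors from limma (3 libraries a group) and colour for the direction called. Il1b (-4.23), Il1a (-3.49) and Nlrp3 (-1.58) lie left of 0, and the 6 genes called higher lie between 0.42 and 1.68.

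Other measures also moved with LPS replicate 1 and with the fatty acid. The 10 neutrophil markers summed to 79.8 to 90.2 in FA+LPS libraries, to 384, 171 and 120.0 in LPS replicates 1 to 3, and to 35.5 to 52.2 in controls, most of the highest sum being S100a8 (372). Of these 10, S100a8 (log2 change -1.34, adjusted p = 0.031) and Camp (-1.09, adjusted p = 0.0036) fell in FA+LPS relative to LPS macrophages, and both had risen with LPS relative to control. S100a9, Ngp and Ltf were not called, and the 5 others, Ly6g, Mpo, Elane, Cxcr2 and Retnlg, were too low to test, with Ly6g at 0 in every LPS library. The 8 stromal markers summed to 9.08 to 11.8 in FA+LPS libraries, to 50.3, 27.9 and 21.5 in LPS replicates 1 to 3, and to 7.00 to 15.5 in controls. Col1a1, Col1a2, Col3a1 and Postn fell in FA+LPS relative to LPS macrophages. Their part in the differences above was not tested.

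Set against untreated controls, FA+LPS macrophages still had raised Il1b (log2 change 4.93 ± 0.62, adjusted p = 4.1e-05) and Il1a (2.57 ± 0.55, adjusted p = 0.0020). In all, 8 members rose and 0 fell, against 60.1% of genes called in either direction and 15.2% called higher. Nlrp3 was higher in each FA+LPS library than in any control, but its log2 change of 0.76 ± 0.35 missed the threshold (adjusted p = 0.083). With median-ratio scaling it was 1.01 and passed (adjusted p = 0.032). The other member not called was Pycard.

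The deposited values behave as if scaled to gene length, which allows a ratio of one gene to another within a library. The ratio of Il1rn to Il1b was 3.21, 3.89 and 4.49 in FA+LPS libraries and 0.0216, 0.102 and 0.297 in LPS libraries. The antagonist transcript thus exceeded that of Il1b in every FA+LPS library and was below it in every LPS library. Controls had ratios of 25.6, 25.5 and 16.0, where Il1b was close to the level of a few fragments. The ratio of Il18bp to Il18 was 1.55, 1.95 and 1.72 in FA+LPS libraries, 1.60, 1.27 and 1.24 in LPS libraries, and 0.628, 0.832 and 0.658 in controls, so the FA+LPS and LPS ranges overlapped and both were above the controls.

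**Figure D3:**
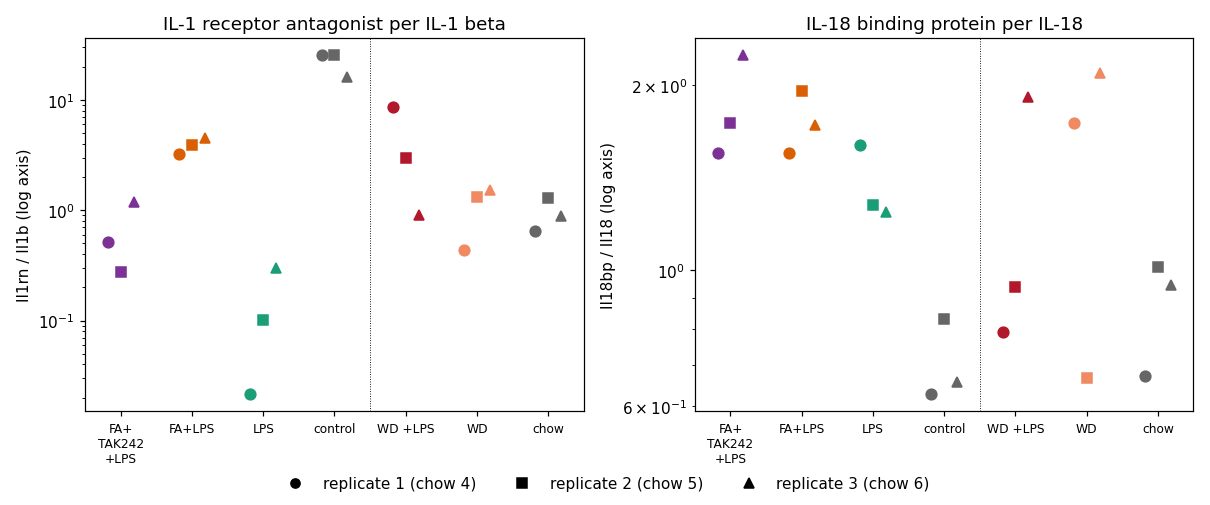
Ratio of Il1rn to Il1b (left) and of Il18bp to Il18 (right) in each of the 21 libraries, on log axes, by labelled group, with the fatty acid table left of the dotted line and the Western diet table right of it. The Il1rn to Il1b ratio is above 1 in all FA+LPS libraries (3.21 to 4.49) and below 1 in all LPS libraries (0.0216 to 0.297).

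TAK242 during the pretreatment was compared next with fatty acid alone. No member passed the adjusted threshold in FA+TAK242+LPS relative to FA+LPS macrophages (limma, 0 of 10, background 4.69%), although 8 of 10 had an unadjusted p under 0.05, as did 23.1% of all genes. Of those 8, 3 were higher with TAK242 and 5 lower, and 8 members did not overlap between the groups, as 36.9% of all genes did not. The stromal marker sum was 19.1 to 23.1 in FA+TAK242+LPS libraries and 9.08 to 11.8 in FA+LPS libraries, with 2 of 5 markers tested called higher. Neutrophil marker sums overlapped, at 65.1 to 88.8 and 79.8 to 90.2, with 0 of 5 called. The part of these markers in the member values was not tested.

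Il1b had 145, 260.4 and 79.9 in FA+TAK242+LPS libraries, against 45.1, 30.7 and 28.2 in FA+LPS libraries (log2 change 2.06 ± 0.62, adjusted p = 0.084). Il1a had 46.3, 79.4 and 32.6 in FA+TAK242+LPS libraries, against 20.5, 15.8 and 14.01 in FA+LPS libraries (log2 change 1.52 ± 0.55, adjusted p = 0.14). Nlrp3 had 11.2, 13.3 and 15.3 in FA+TAK242+LPS libraries, against 8.04, 7.31 and 6.29 in FA+LPS libraries (log2 change 0.79 ± 0.35, adjusted p = 0.20). Every TAK242 library was above every library with fatty acid alone for these 3 genes.

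A further 6 members had lower means with TAK242. Il1rn had 74.5, 71.6 and 95.5 in FA+TAK242+LPS libraries, against 145, 119.7 and 127 in FA+LPS libraries (log2 change -0.70 ± 0.20, adjusted p = 0.070). Il18 had 27.4, 28.5 and 30.5 in FA+TAK242+LPS libraries, against 53.3, 46.0 and 45.8 in FA+LPS libraries (log2 change -0.73 ± 0.27, adjusted p = 0.15). The same held for Il18bp, at 42.4, 49.4 and 68.3 in FA+TAK242+LPS libraries against 82.7, 89.8 and 79.0 in FA+LPS libraries (log2 change -0.67 ± 0.25, adjusted p = 0.15). Casp1, Casp4 and Gsdmd had log2 changes of -0.29, -0.22 and -0.41, with adjusted p of 0.17, 0.28 and 0.21, and the groups overlapped for Casp4.

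These calls depended on which libraries set the spread. With LPS replicate 1 left out of the fit, which this comparison does not use, 7 of the 10 members were called, 3 higher and 4 lower. With only the FA+TAK242+LPS and FA+LPS libraries in the fit, 6 were called, 3 in each direction. The shares of all genes called in these refits are not given here, so the counts are no result particular to the members. Median-ratio scaling called 1, Il1rn (log2 change -0.71, adjusted p = 0.049), beside 4.36% of all genes called higher and 2.99% called lower.

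Against LPS alone, FA+TAK242+LPS macrophages had 1 member called, Il18bp, which rose by 1.02 ± 0.25 (adjusted p = 0.045), with 5.89% of all genes called and 4.05% called higher. Leaving out LPS replicate 3 gave 7 called members, 4 higher and 3 lower, and leaving out any other library of these groups gave 0. How many of all genes were called in those fits is not given here, so the 7 cannot be set against a background. Il1b had a log2 change of -2.17 ± 0.62 (adjusted p = 0.060) and Il1a one of -1.97 ± 0.55 (adjusted p = 0.058). The ratio of Il1rn to Il1b was 0.512, 0.275 and 1.20 in FA+TAK242+LPS libraries, which overlapped the 0.0216 to 0.297 of LPS libraries and lay below the 3.21 to 4.49 of FA+LPS libraries. Relative to controls, 9 members rose and 0 fell in FA+TAK242+LPS macrophages, against 58.1% of genes called in either direction and 14.1% called higher, and Pycard was the exception.

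Other genes of the pathway were described by lists. Of 15 listed ligands and receptors of the IL-1 family, 3 passed the filter in the fatty acid table. Il36a, an IL-36 cytokine, and Il1rl2, the IL-36 receptor, rose with LPS and fell in FA+LPS relative to LPS macrophages, where 15.3% of all genes fell. Il36a averaged 0.526 ± 0.175 in FA+LPS libraries and 3.57 ± 1.69 in LPS libraries (SD, n = 3 each; log2 change -1.53, adjusted p = 0.00083), and it was listed at 0 in all controls. Only LPS and FA+TAK242+LPS libraries reached the filter's value of 1 for Il36a. Its rise with LPS and its fall in FA+LPS libraries thus follow partly from its selection and are no support. Il1rl2 averaged 1.89 ± 0.68 in FA+LPS libraries and 4.91 ± 1.76 in LPS libraries (log2 change -1.02, adjusted p = 0.0085). The IL-1 receptor Il1r1 was at most 0.192 and the decoy receptor Il1r2 at most 0.124 in any library of the series, and the IL-18 receptor gene Il18r1 at most 0.016.

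Of 12 signalling adaptors tested, 1 rose and 1 fell in FA+LPS relative to LPS macrophages, where 21.8% of all genes rose and 15.3% fell. Irak2, a kinase of the IL-1 and Toll-like receptor pathway, fell to 8.01 ± 1.01 in FA+LPS libraries, against 15.7 ± 3.41 in LPS libraries (log2 change -0.87, adjusted p = 0.0019). Peli1, a ubiquitin ligase of that pathway, rose slightly (log2 change 0.29, adjusted p = 0.034). LPS alone relative to control raised 4 of the 12 and lowered 5 (13.8% and 47.9% of all genes), or 4 and 2 with median-ratio scaling (27.2% and 26.9%). Among them was Irak3, an inhibitor of the pathway, at 46.8 ± 5.53 in LPS libraries and 6.16 ± 0.73 in controls (log2 change 2.74, adjusted p = 2.7e-07).

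Of 15 other inflammasome sensors tested, 7 rose and 0 fell in FA+LPS relative to LPS macrophages, beside 21.8% and 15.3% of all genes, and with median-ratio scaling 7 rose and 1 fell. Naip6 and Naip5, of a family that binds bacterial proteins, rose by 0.76 and 0.77 on the log2 scale (adjusted p = 0.00063 and 0.00099), though they are near-identical copies whose reads can be shared. Nlrp1b rose by 1.04 (adjusted p = 0.0042) and Aim2, a DNA sensor, by 0.67 (adjusted p = 0.0052). The Nlrp1b mean of 2.48 in FA+LPS libraries was above the 0.744 of LPS libraries but below the 5.13 of controls. LPS alone relative to control raised 7 and lowered 4 (8 and 2 with scaling), beside 13.8% and 47.9% of all genes, led by Mefv, the pyrin gene, at 7.41 ± 0.62 in LPS libraries and 0.474 ± 0.061 in controls.

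Of 19 regulators and licensing factors, 12 rose and 2 fell in FA+LPS relative to LPS macrophages, beside 21.8% and 15.3% of all genes. Nek7, a kinase that NLRP3 needs for assembly, averaged 8.04 ± 0.26 in FA+LPS libraries and 4.93 ± 0.38 in LPS libraries (log2 change 0.61, adjusted p = 0.00050). It thus rose where Nlrp3 fell. Relative to control, LPS had lowered Nek7 (log2 change -0.998, adjusted p = 8.1e-07) while Nlrp3 rose. Gbp2 and Gbp5, interferon-induced GTPases, averaged 266 and 51.5 in FA+LPS libraries, against 110.4 and 22.0 in LPS libraries (adjusted p = 0.0017 and 0.0022), and Tlr4, the LPS receptor, averaged 2.80 in FA+LPS libraries and 1.72 in LPS libraries (adjusted p = 0.0015).

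Of 13 cell death effectors tested, 4 rose and 3 fell in FA+LPS relative to LPS macrophages, beside 21.8% and 15.3% of all genes. Casp8, an apoptotic caspase, rose by 0.54 (adjusted p = 0.0068), Mlkl, the executioner of necroptosis, by 0.46 (adjusted p = 0.016), and Bax, a mitochondrial death protein, fell by 0.62 (adjusted p = 0.012). LPS alone relative to control raised 2 and lowered 6, near the 13.8% and 47.9% of all genes, which became 5 and 2 with median-ratio scaling (27.2% and 26.9% of all genes). None of the 5 lists had a gene called in FA+TAK242+LPS relative to FA+LPS macrophages (limma, adjusted p under 0.05), where 4.69% of all genes were called. Median-ratio scaling called 1 sensor higher and 2 lower and 2 regulators lower, beside 4.36% of all genes higher and 2.99% lower.

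For likeness of pattern, 4614 genes were compared with each member over the 12 libraries of the fatty acid table by Pearson correlation of log2(value + 1), as a description. The 3 genes most like Il1b were Bmp1, Mcemp1 and Cd302, each at 1.00 after rounding. Those most like Il1rn were Oas2, Gbp2 and Ms4a6d, and those most like Casp1 were Rsad2, Ifi214 and Ifit1, also at 1.00. For Il1a they were Susd2, Cd14 and Slpi (0.99), and for Nlrp3 Procr, Abcc4 and Serpinb2 (0.98). The contrast of LPS libraries with controls dominates these values, and Pycard had no neighbour above 0.86.

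In the Western diet table, most members did not pass the test between the labelled groups. Relative to WD macrophages, WD+LPS macrophages had 1 member called, Nlrp3, which was lower, with 0.958% of all genes called and 0.281% called lower. Relative to chow macrophages, Nlrp3 was again the only 1 of 10 called and lower, with 1.39% of all genes called and 0.619% called lower. WD relative to chow macrophages had 0 of 10 called (limma, background 0.232%), and 7 of 10 at an unadjusted p under 0.05, all higher, as had 27.3% of all genes.

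Il1b had 0.07, 0.60 and 66.6 in WD+LPS replicates 1 to 3, 717, 2.42 and 598 in WD replicates 1 to 3, and 2.77, 1.69 and 2.19 in chow replicates 4 to 6. Il1a had 0.96, 2.11 and 34.3 in WD+LPS libraries, 61.9, 0.19 and 59.9 in WD libraries, and 0.15, 0.18 and 0.06 in chow libraries. Both cytokines were high in the libraries with high LPS response genes, which are WD+LPS replicate 3 and WD replicates 1 and 3, and low in the rest. Il1rn had 0.56, 1.78 and 60.4 in WD+LPS libraries, 316, 3.19 and 918 in WD libraries, and 1.797, 2.17 and 1.92 in chow libraries, and it followed the same split. Il18bp, at 6.82, 10.3 and 69.5 in WD+LPS libraries, 128, 7.64 and 139 in WD libraries, and 7.94, 9.68 and 9.46 in chow libraries, did too. Among libraries with low LPS response genes, Il1a was higher in WD+LPS replicates 1 and 2 than in WD replicate 2 or any chow library.

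The ratio of Il1rn to Il1b was 8.67, 2.99 and 0.907 in WD+LPS libraries, 0.440, 1.32 and 1.53 in WD libraries, and 0.648, 1.28 and 0.880 in chow libraries, which overlapped. The ratio of 8.67 rests on an Il1b value of 0.065 in WD+LPS replicate 1, where 1 fragment is worth about 0.030. Il1b relative to Il1a was 0.068, 0.283 and 1.94 in WD+LPS libraries and 9.98 to 13.0 in WD libraries. In chow libraries it was 9.43 to 38.9, where Il1a was at most 0.179. The WD+LPS libraries were thus separate from all others in this ratio. The ratio of Il18bp to Il18 was 0.792, 0.938 and 1.91 in WD+LPS libraries, 1.73, 0.668 and 2.09 in WD libraries, and 0.671, 1.01 and 0.947 in chow libraries, and the highest ratios were those of the libraries with high LPS response genes.

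Casp4 had 4.03, 2.85 and 33.9 in WD+LPS libraries, 50.5, 8.13 and 102 in WD libraries, and 2.71, 3.10 and 5.54 in chow libraries. Casp1 had 36.0, 33.3 and 144 in WD+LPS libraries, 221, 47.5 and 315 in WD libraries, and 33.0, 26.6 and 40.5 in chow libraries. For both caspases, too, the same 3 libraries were the highest of the 9. Gsdmd had 26.8, 25.6 and 71.0 in WD+LPS libraries, 98.1, 25.1 and 91.4 in WD libraries, and 28.7 to 30.7 in chow libraries. Il18 had 8.61, 10.98 and 36.4 in WD+LPS libraries, 73.8, 11.4 and 66.2 in WD libraries, and 9.58 to 11.8 in chow libraries. Pycard again jumped between libraries, at 113, 52.4 and 151 in WD+LPS, 51.8, 23.2 and 5.88 in WD, and 86.0, 18.8 and 78.0 in chow, and no comparison of it was called. All WD+LPS libraries were above all WD libraries in Pycard (log2 change 2.24, adjusted p = 0.23).

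Nlrp3 was lowest in the libraries labelled WD+LPS. It had 4.43, 4.61 and 6.89 in WD+LPS libraries, 27.0, 21.9 and 26.0 in WD libraries, and 18.1, 18.9 and 15.7 in chow libraries. All WD+LPS libraries were below all others, both the pair with low LPS response genes and the one with high. A batch or preparation shared by the WD+LPS libraries would coincide with their label, cannot be told apart from it and was not tested. Marker sums also differed by label. The neutrophil sum was 76.4 to 81.6 in WD+LPS, 25.9 to 70.6 in WD and 35.8 to 57.2 in chow libraries. Of 5 neutrophil markers tested, 1 was called higher relative to WD and 0 relative to chow, beside 0.958% and 1.39% of all genes called. S100a8, at 44.0 to 48.3 in WD+LPS, lay within the 13.5 to 65.2 of WD libraries. The stromal sum, at 1.48 to 2.67 in WD+LPS, lay between the 3.59 to 6.66 of WD and the 0.191 to 0.771 of chow libraries. The part of these markers in the Nlrp3 values was not tested. The log2 change of Nlrp3 was -2.06 ± 0.20 relative to WD (adjusted p = 0.0048) and -1.57 ± 0.20 relative to chow (adjusted p = 0.0099). The call relative to WD was lost with the replicate block (adjusted p = 0.24) and with only these 2 groups in the fit (adjusted p = 0.10). The call relative to chow was lost with median-ratio scaling (adjusted p = 0.071) and without any one library of the pair of groups except WD+LPS replicate 3, with an adjusted p of at most 0.071. Il1rl2 kept to the label as well. It averaged 3.11 ± 0.11 in WD+LPS libraries, 0.287 ± 0.178 in WD libraries and 0.050 ± 0.021 in chow libraries. Only the WD+LPS libraries reached a value of 1, so Il1rl2 passed the filter through them alone. Its calls in both comparisons (limma, adjusted p = 0.0029 and 0.00056) thus follow from that selection and are no support.

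**Figure D4:**
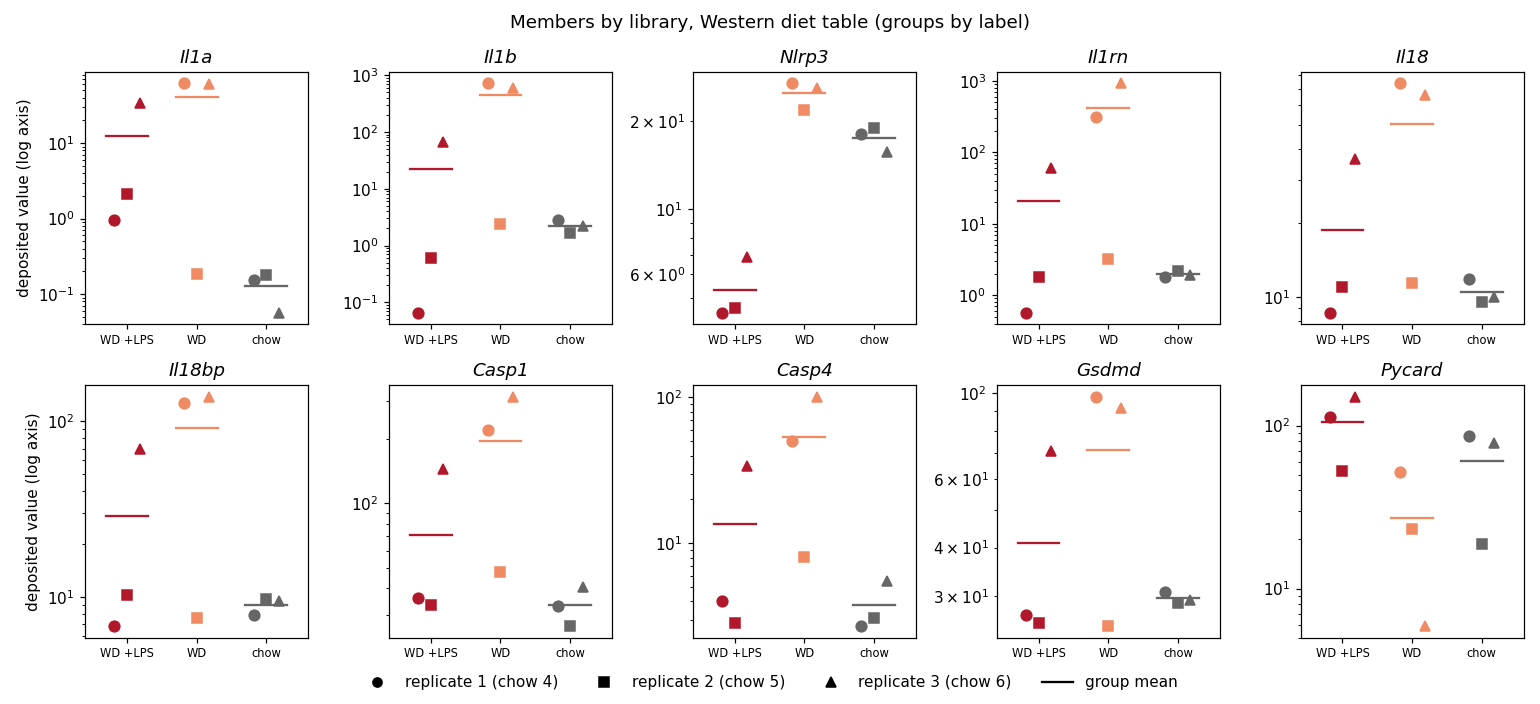
Deposited values of the 10 genes (log axes) in the 9 libraries of the Western diet table, by labelled group, with a symbol for each replicate and a line at the group mean. WD+LPS replicate 3 and WD replicates 1 and 3 are the highest for Il1a, Il1b, Il1rn, Il18, Il18bp, Casp1, Casp4 and Gsdmd, and Nlrp3 is lowest in the 3 WD+LPS libraries.

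Leaving out the 4 libraries that did not match their label left 1 library each of WD+LPS and WD. These were kept by their LPS response genes, which fixes the direction of genes that follow LPS, so no test is given. WD+LPS replicate 3 and WD replicate 2 had Il1b at 66.6 and 2.42, Il1a at 34.3 and 0.19, and Il1rn at 60.4 and 3.19. Nlrp3 was at 6.89 in WD+LPS replicate 3 and 21.9 in WD replicate 2. Levels were not compared between the tables, whose normalization may differ.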

How the data were processed

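RNA-seq of 21 macrophage libraries was analysed from the authors' 2 deposited tables. HISAT2 2.0.5, Trim Galore 0.4.1, FastQC 0.11.5 and CASAVA 1.8.2 are the tools listed per the submitters' processing notes, beside the builds mm9 and mm10, whose roles are not stated; the quantification step is not given in the sources used here. The authors deposited normalized values without naming their unit, handled here as a score; coordinates equal GENCODE M21 (GRCm38) for 46773 of the 50645 fatty acid table genes. Entries with displaced fields were left out (36 and 35).

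Genes at 1 or more in at least 3 libraries of a table were kept. The log2(value + 1) was fitted per table with limma 3.58.1 (mean-variance trend, R 4.3.3), which gave every adjusted p (Benjamini-Hochberg over all genes kept; threshold 0.05). Changes of low genes are understated on this scale. The fit was tested on simulated data. It recovered 84% to 87% of 2-fold and 96% to 97% of 4-fold changes in the fatty acid table. In the Western diet table it recovered 28% to 31% and 61% to 68%, so a gene not called there may still differ. The same holds for genes of wide spread in the fatty acid table. Il1b, at a log2 change of 2.06 ± 0.62 in FA+TAK242+LPS relative to FA+LPS macrophages, was not called (limma, adjusted p = 0.084). The 10 members and all lists were chosen with earlier results of these data known. Named pathway genes are up to 4 per list with the smallest adjusted p, of which 1 is not reported here; other genes named were chosen after their values were seen. Alternatives were the pseudocount, the filter, median-ratio scaling, the replicate block, fits of 2 groups, and left-out libraries; leaving LPS replicate 1 out of the whole fit was added after seeing the data.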

Additional observations from a re-analysis of the deposited data

How the results depend on the processing

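For most alternative fits the share of all genes called is not given here, so the counts below are no result particular to the members. Across the alternatives, members called stayed within 1.5 times for LPS, FA+LPS and FA+TAK242+LPS against control and for FA+LPS against LPS (8 to 9 without single libraries in each). For FA+TAK242+LPS against LPS, 1 in the fit reported, it was 0 with no filter, 3 with median-ratio scaling, 0 with only the 2 groups, and 0 to 7 when single libraries were left out. For FA+TAK242+LPS against FA+LPS, 0 in the fit reported, it was 1 with scaling, 6 with only the 2 groups and 7 without LPS replicate 1 in the fit. For WD+LPS against chow, 1 in the fit reported, it was 0 with scaling, 0 to 1 without single libraries and 9 without the 4 mismatched libraries. For WD against chow it ranged from 0 to 9 and for WD+LPS against WD from 1 to 9 without single libraries, 9 being without WD replicate 2; WD+LPS against WD had 0 with only the 2 groups and 9 without the 4 libraries. Same-numbered deviations from group means correlated from -0.081 to 0.20 over 18 pairs in the fatty acid table, with no clear pairing by number. In the Western diet table, replicates 1 to 3 gave -0.67, 0.68 and 0.76. Replicates 1 differed in their LPS response genes, while replicates 2 and replicates 3 were alike in them, so pairing cannot be judged there. With the replicate block, members called fell to 0 for WD+LPS against WD and changed in no other comparison that could be fitted.

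Directions turned in results that were not called. Pycard turned to 0.29 with scaling in FA+LPS against control, and without single libraries its log2 change ran from -0.85 to 0.40 there, from -0.070 to 1.19 in FA+TAK242+LPS against control, from -1.59 to 0.31 in LPS against control and from -0.33 to 1.49 in FA+LPS against LPS. Il18 in LPS against control ran from -0.063 to 0.64. In WD+LPS against chow, Il1b was -0.20 at a pseudocount of 0.1, and without single libraries Il1b ran from -1.29 to 1.71, Il1rn from -0.50 to 2.14, Il18 from -0.091 to 0.89, Il18bp from -0.089 to 1.497, Casp4 from -0.073 to 1.52 and Gsdmd from -0.17 to 0.55. Without the 4 libraries, WD against chow was -0.21 for Il18bp and -0.23 for Gsdmd, and WD+LPS against WD turned to 4.89 for Il1a, 4.30 for Il1b, 3.87 for Il1rn, 1.59 for Il18, 3.03 for Il18bp, 1.58 for Casp1, 1.93 for Casp4 and 1.47 for Gsdmd. The fits without the 4 libraries set 1 library against others, kept by their LPS response genes, so their calls and directions are descriptions and no support. The cause of the other turns was not tested. Fragment counts are estimated rather than deposited, so no counting interval is given.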
